A study of Gallus gallus with 15 samples.

Results

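The 10 pools from hens given a steroid hormone were set against the 5 pools from hens given oil alone, to look for transcript differences common to both hormones. All 15 libraries of the series enter this comparison. The hormone pools comprise 5 corticosterone pools and 5 testosterone pools, taken by their labels, and each hormone carries equal weight in the mean whatever its number of libraries. White Leghorn laying hens were injected with corticosterone (1.5 mg), testosterone (1.5 mg) or the vehicle that all groups received, 0.5 ml of peanut oil. The injection was timed 5 h before the ovulation predicted from earlier laying. Hens were killed about 1.5 h later, and the germinal disc region was cut from the largest preovulatory (F1) follicle at 3.5 h before ovulation.

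The RNA in 1 library came from several hens. The source names give 8 discs per pool and the extraction protocol gives 9, so that number is uncertain. A germinal disc region includes granulosa cells beside the oocyte cytoplasm, and their share was not measured, so fewer cells of a type and less RNA per cell cannot be told apart in these bulk samples. The labels call the replicates biological, and p-values here measure the spread between pools and not between single hens. Hens that received no injection do not enter the comparison, so an effect of handling or of oil cannot be told apart from the level in controls.

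The germinal disc is the small pale patch at the yolk's surface where the oocyte's nucleus and, later, its meiotic chromosomes lie. In birds the female is the heterogametic sex, and the sex chromosomes segregate in the oocyte in the hours before ovulation. Corticosterone is the main glucocorticoid of birds and testosterone the main androgen. Each acts largely through a receptor of the same family, a transcription factor that binds DNA once hormone is bound, and the glucocorticoid and androgen receptors recognise closely related DNA elements. The stated question of the study was whether either hormone altered genes that control how chromosomes segregate. The deposited counts carry Ensembl identifiers without gene names, and the reference table used here matched 0 of the 24881 identifiers. Segregation genes, steroid target genes and cell type markers could therefore not be picked out. The labelled tissue could not be checked against its markers either, and transcripts are described by identifier, level and response.

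Libraries held 12913729 to 33795073 counts. The lowest total belonged to testosterone replicate 5, and the next lowest was 24550108. Of the 24881 genes, 14260 had enough counts to be tested and held 99.95% of all counts. Levels are given as CPM, counts scaled to a common library total with TMM factors (trimmed means of log ratios between libraries). Corticosterone replicates 1 and 2 and testosterone replicate 2 stood apart from the other pools on the first principal component, with scores of 26.6, 34.5 and 8.75, against -15.7 to 0.917 in the other 12 libraries. Genes far above the median were taken as those at 4 times the median library or more, after 0.5 CPM was added to both values. The added 0.5 CPM leaves out some scarce genes. Such genes numbered 27, 24 and 11 in these 3 hormone pools, 2 in control replicate 1 and 0 in the other 11 libraries.

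No gene differed between hormone and control pools after adjustment for multiple testing. With edgeR's quasi-likelihood test, 0 of 14260 genes (0%) had a Benjamini-Hochberg adjusted p under 0.05, and the smallest adjusted p was 0.781. With limma voom 0 genes passed, whereas DESeq2 called 2 genes, both lower in hormone pools. Before adjustment, 877 genes (6.15%) had an edgeR p under 0.05, of which 429 (3.01%) were higher and 448 (3.14%) lower in hormone pools. An even spread of p would give 713 genes. At a p under 0.01 there were 122 genes, against 143 from an even spread, and at a p under 0.001 there were 9 against 14. The excess over an even spread thus lay at intermediate p and not among the smallest ones.

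**Figure D1:**
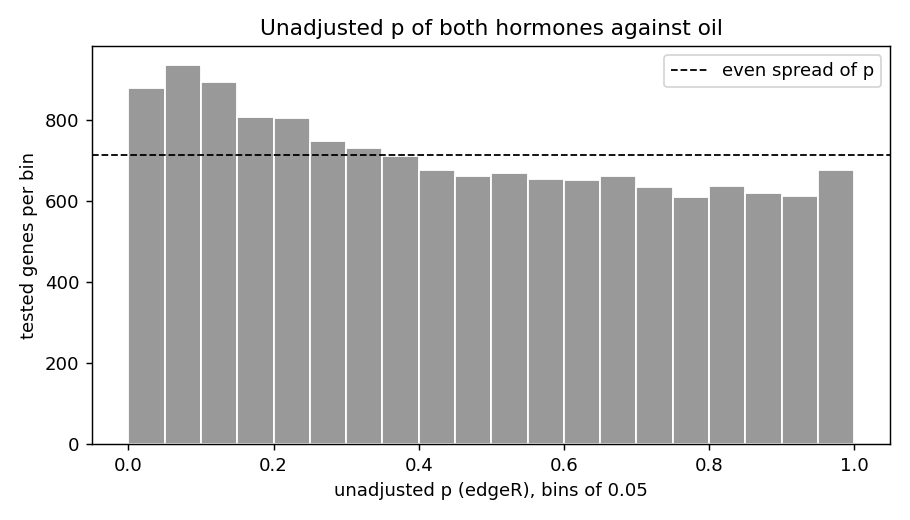
Number of tested genes per bin of 0.05 of the unadjusted edgeR p for hormone pools against oil controls. The first 3 bins hold 877 to 935 genes and the 10 bins above a p of 0.5 hold 609 to 677, and the dashed line marks the 713 genes of an even spread.

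Taking both hormones together gave a smaller median error of the fold change. The pooled comparison holds more libraries and shares its estimate of spread with the single ones, so this follows from the design. The median standard error of a log2 fold change was 0.079 for hormone against control, against 0.091 for corticosterone alone and 0.092 for testosterone alone, each against the same controls. For 7869 genes (55.2%) the 95% interval of the pooled comparison stayed inside a 1.2-fold difference either way. It did so for 6350 genes (44.5%) after corticosterone and for 7083 genes (49.7%) after testosterone. Inside 1.5-fold were 12517 genes (87.8%) and inside 2-fold 13961 genes (97.9%) of the pooled comparison. The count of genes at a small p lay between those of the single hormones. The 877 genes of the pooled comparison stand beside 1346 genes (9.44%) for corticosterone and 485 genes (3.4%) for testosterone, and these 3 counts share the controls and are not independent of each other.

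Most differences were small. The 5th and 95th percentiles of the log2 fold change over all tested genes were -0.22 and 0.19, with a median of -0.0053. Among the 2171 genes over 100 CPM, which held 71.7% of the counts, 74 were higher and 108 lower at an unadjusted p under 0.05 (8.38% of them), with a median size of 0.13 log2 units. Of the same 2171 genes, 14 were higher and 43 lower without control replicate 1, 38 and 56 without control replicate 2, and 33 and 39 without control replicate 5. In each of these fits the share was below the 0.05 that an even spread of p would give. The counts became 127 and 173 without control replicate 4, and 138 and 197 without corticosterone replicate 5. Of the 6598 genes at 10 to 100 CPM 224 were higher and 200 lower (6.43%), and of the 3857 at 1 to 10 CPM 88 were higher and 97 lower (4.8%). Below 1 CPM, 43 of 1634 genes were higher and another 43 lower (5.26%). There the median standard error was 0.24, and the genes past that p had a median size of 0.59 log2 units.

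The division into higher and lower genes depended on how libraries were scaled. With TMM it was 429 and 448, and with libraries scaled by their total counts alone it was 639 higher and 241 lower. That change of scaling moved the median log2 fold change of all genes by only 0.029. Over 100 CPM the division was 74 higher and 108 lower with TMM and 109 higher and 60 lower with total counts. RLE scaling gave 456 higher and 399 lower genes in all, and upper-quartile scaling 457 and 424. A direction for the transcriptome as a whole was therefore not given by these data.

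**Figure D2:**
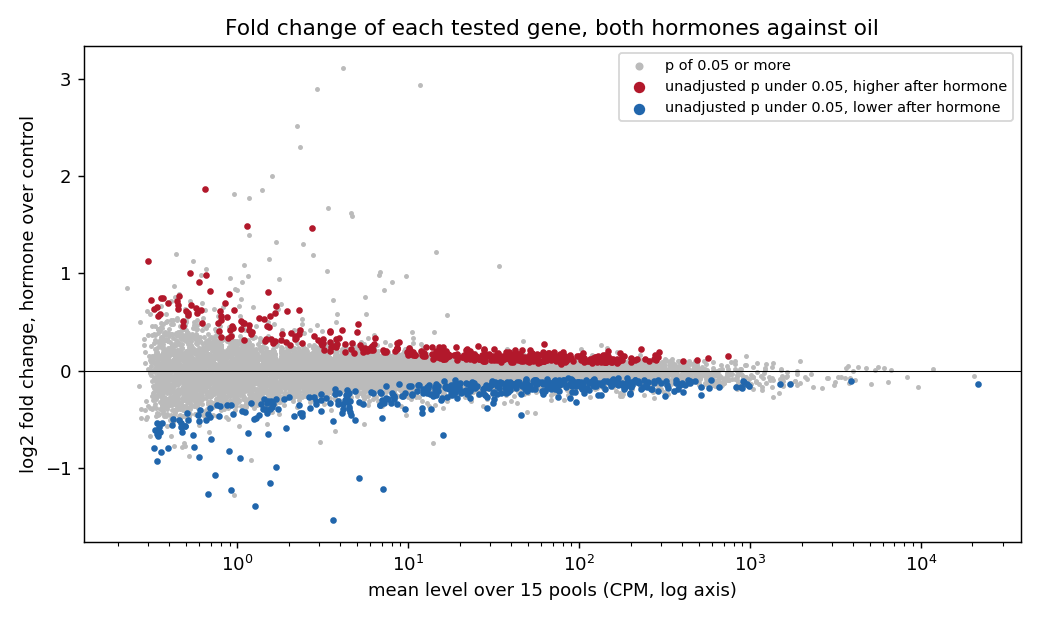
Log2 fold change of each of the 14260 tested genes, hormone over control, against its mean level over 15 pools in CPM on a log axis. Red and blue points are the 429 higher and 448 lower genes at an unadjusted p under 0.05, and no gene passes the adjusted threshold. The highest points, up to 3.11 log2 units, are grey since their p is 0.05 or more.

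ENSGALG00000046395 had the smallest p of all genes and was lower after both hormones. Its level was 10.2, 9.56, 10.1, 10.9 and 13.2 CPM in corticosterone replicates 1 to 5 and 10.7, 10.2, 11.8, 12.0 and 10.5 CPM in testosterone replicates 1 to 5. Controls were at 14.1, 12.5, 14.8, 15.8 and 14.1 CPM. In 9 of the 10 hormone pools it lay below the lowest control, and corticosterone replicate 5 lay within the control range. Corticosterone pools averaged 10.8 ± 1.43 CPM, testosterone pools 11.1 ± 0.815 CPM and controls 14.3 ± 1.21 CPM (SD, n = 5 each). Its log2 fold change, hormone over control, was -0.38 ± 0.077 (SE, edgeR adjusted p = 0.781), with a 95% interval of -0.55 to -0.22. DESeq2 gave it an adjusted p of 0.030. Over all 29 alternatives its adjusted p ran from 0.030 to 1.00, and DESeq2 was the only one in which it passed the threshold. The hormones did not differ detectably from each other, with a log2 difference, corticosterone over testosterone, of -0.042 and a 95% interval of -0.24 to 0.15 (edgeR adjusted p = 0.954).

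ENSGALG00000002141 had the smallest p among lower genes over 100 CPM. It was at 187.6, 165.8, 187.1, 189.5 and 187.8 CPM in corticosterone replicates 1 to 5, at 205.5, 202.2, 201.0, 213.8 and 191.2 CPM in testosterone replicates 1 to 5, and at 219.0, 212.3, 213.2, 197.6 and 238.6 CPM in controls. All 5 corticosterone pools lay below every control, whereas 4 of the 5 testosterone pools lay within the control range. Over controls, the pooled log2 fold change stood at -0.16 ± 0.046 (SE), with an adjusted p of 0.781 by edgeR. It was -0.24 ± 0.053 for corticosterone alone and -0.092 ± 0.053 for testosterone alone, against the same controls. Corticosterone over testosterone gave -0.14 ± 0.053, with a 95% interval of -0.26 to -0.033 and an edgeR adjusted p of 0.599 over all genes. The pooled value of this gene thus averages unequal values of the hormones, a difference that did not pass adjustment.

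ENSGALG00000044985 had the smallest p among higher genes. It was at 27.2, 29.9, 29.0, 29.3 and 29.2 CPM in corticosterone replicates 1 to 5 and at 27.8, 27.4, 27.5, 29.9 and 32.7 CPM in testosterone replicates 1 to 5. Controls were at 23.9, 23.0, 25.7, 28.1 and 23.0 CPM. The groups overlapped through control replicate 4 alone, which exceeded 4 of the 10 hormone pools. Corticosterone pools averaged 28.9 ± 1.01 CPM, testosterone pools 29.1 ± 2.28 CPM and controls 24.7 ± 2.21 CPM (SD, n = 5 each). Hormone pools were 1.17-fold above controls, or 0.23 ± 0.057 on the log2 scale (SE, edgeR adjusted p = 0.781). The hormone groups lay within their spread of each other, and the 95% interval of their log2 difference ran from -0.14 to 0.13.

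ENSGALG00000021572 had the smallest p among higher genes over 100 CPM. It was at 205.3, 226.8, 248.7, 257.9 and 233.9 CPM in corticosterone replicates 1 to 5, at 237.7, 234.4, 229.5, 258.3 and 281.4 CPM in testosterone replicates 1 to 5, and at 184.3, 196.9, 206.3, 234.4 and 209.3 CPM in controls. Control replicate 4 was again the highest control and lay among the hormone pools, 6 of which exceeded it. Over controls, the pooled log2 fold change stood at 0.23 ± 0.064 (SE), with a 95% interval of 0.092 to 0.36 and an adjusted p of 0.781 by edgeR. For corticosterone alone it was 0.19 ± 0.073 and for testosterone alone 0.27 ± 0.073.

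**Figure D3:**
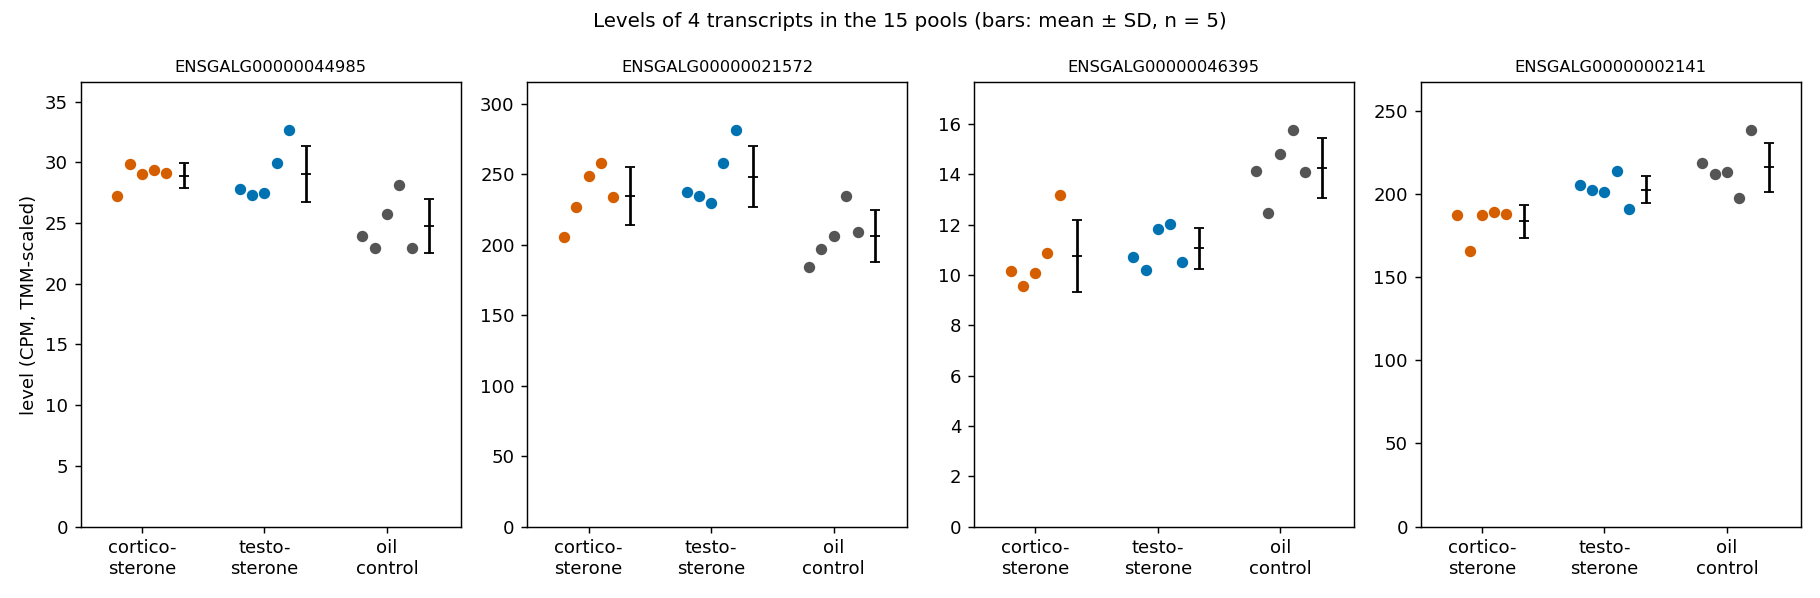
Level in CPM of 4 transcripts in each of the 15 pools (points), with mean and SD per group (bars, n = 5), for the smallest p and the smallest p over 100 CPM in each direction. The axes start at 0, and in each panel at least 1 hormone pool lies within the range of the oil controls.

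The other gene that DESeq2 called, with an adjusted p of 0.030, varied mostly among the controls. It was at 14.5, 13.3, 11.7, 14.1 and 12.7 CPM after corticosterone and at 12.9, 13.0, 15.3, 12.6 and 14.9 CPM after testosterone. Controls were at 14.7, 30.8, 25.0, 15.7 and 19.7 CPM. Hormone pools thus spanned 11.7 to 15.3 CPM, and the control SD of 6.72 CPM exceeded the SD of either hormone group, 1.11 CPM for corticosterone and 1.26 CPM for testosterone. In edgeR its log2 fold change was -0.66 ± 0.136 (SE, adjusted p = 0.781), and 8 of 10 hormone pools lay below the lowest control.

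Few genes had all hormone pools apart from all controls. The 10 hormone values and the 5 control values did not overlap for 9 of 14260 genes (0.0631%), 5 above (0.0351%) and 4 below (0.0281%) the controls. If every division of the libraries into 10 and 5 were equally likely, a gene would be so apart with a probability of 0.000666. The share found was near that. With 1 control left out the probability is 0.002. Their mean levels ran from 0.672 to 83.4 CPM and their log2 fold changes from -0.44 to 0.28. The gap between the nearest hormone and control values was 1.03-fold at its widest, for a gene at 6.59 CPM in hormone pools and 7.72 CPM in controls, whose log2 fold change stood at -0.22 ± 0.073 (SE), with an adjusted p of 0.781 by edgeR. For the other 8 genes the gap was 1.01-fold or less. With upper-quartile scaling 4 genes were apart and with total counts 5. Without control replicate 4, the number was 68 of 14384 tested genes, a share above 0.002. Without control replicate 3 it was 31 of 14332, a share near 0.002. Leaving out another control gave 14 to 21, of 14335 to 14388 tested genes, shares below 0.002. Leaving out a single hormone pool gave 11 to 20, of 14320 to 14395 tested genes. The probability of non-overlap is higher there too than with all pools.

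The 20 genes of smallest p in each direction were followed across pools as a description, since they were chosen on these values. In the 20 higher genes the median log2 fold change was 0.24, from 0.14 to 1.13. Their median was 0.23 for each hormone taken alone. Between 12 and 19 of the 20 lay above the highest control in each of the corticosterone pools and between 12 and 16 in each of the testosterone pools. In the 20 lower genes the median log2 fold change was -0.28, from -0.90 to -0.16, with a median of -0.36 for corticosterone and -0.22 for testosterone. Corticosterone pools had 13 to 20 of these 20 genes below the lowest control, and testosterone pools had 6 to 18. Testosterone replicate 4 had the fewest, 6.

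**Figure D4:**
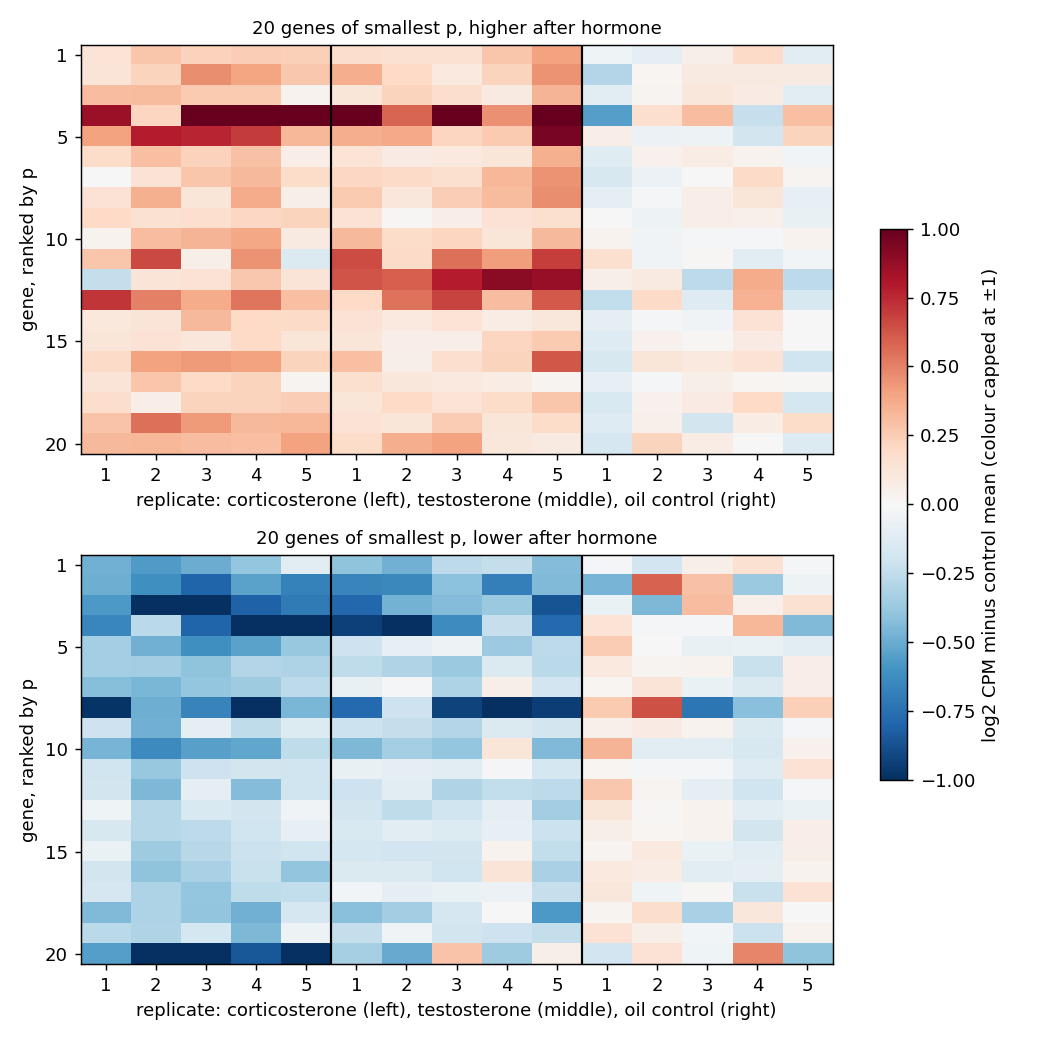
Log2 CPM minus the control mean for the 20 genes of smallest p in each direction, in rows by rank, with corticosterone pools left, testosterone pools in the middle and oil controls right, and colour capped at 1 log2 unit. The genes were chosen on these values. The lower genes are paler in testosterone pools, with a median log2 fold change of -0.36 for corticosterone and -0.22 for testosterone.

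The hormones were also set against each other within the higher and the lower genes. The direct contrast of corticosterone with testosterone leaves out the control mean, but its estimate of spread came from all 15 libraries. It had 909 genes at an unadjusted p under 0.05 (6.37% of all tested genes). Of the 429 genes higher in hormone pools, 18 were among them, which is 4.2% of the 429 and 1.98% of the 909. Of the 448 genes lower in hormone pools, 89 were among them, which is 19.9% of the 448 and 9.79% of the 909. In 87 of these 89 the level was lower after corticosterone than after testosterone. The same held for 615 of all 909 genes, and 294 were higher after corticosterone. Of the 18 genes from the higher list, 13 were higher after corticosterone and 5 lower. Over 100 CPM the overlap was 35 of the 108 lower genes (32.4%), where 205 of the 2171 tested genes over 100 CPM (9.44%) had such a p. No gene passed adjustment in either comparison, and these shares were not tested. They rest on TMM scaling alone. With total counts the lower list held 241 genes in place of 448. Neither the overlap nor the division of the 909 genes was recomputed with that scaling. Both comparisons rest on the same hormone pools and the same estimate of spread, so their lists are not independent.

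Side by side, the 448 lower genes had a median log2 fold change of -0.23 for corticosterone and -0.14 for testosterone, against the same controls. For the 429 higher genes the medians were 0.17 for corticosterone and 0.16 for testosterone. The medians of the hormones were thus nearer to each other for the higher genes, a difference that was not tested. These medians too were taken with TMM scaling alone. With TMM scaling, the most abundant transcript of the data belonged to the lower genes, at an unadjusted edgeR p of 0.039. Whether it stays there with another scaling was not tested. This transcript averaged 20627 ± 1252 CPM in corticosterone pools, 21092 ± 918 CPM in testosterone pools and 22912 ± 1416 CPM in controls (SD, n = 5 each). Hormone over control, the log2 fold change of this transcript stood at -0.14 ± 0.061 (SE), with an adjusted p of 0.781 by edgeR. Across pools it ran from 19081 to 22241 CPM after hormone and from 20931 to 24423 CPM in controls, so the groups overlapped.

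Most genes of large fold change were high in a few pools. A fold change over 2-fold was fitted for 39 genes, 30 higher and 9 lower in hormone pools, and for 13 of them the unadjusted p was under 0.05. The largest, 3.11 log2 units, had an unadjusted edgeR p of 0.050. It belonged to the genes at 4 times the median or more in some pool, with 0.5 CPM added to both values. Of the 30 higher genes, 25 were of that kind. Leaving out corticosterone replicates 1 and 2 gave 3 higher and 18 lower genes over 2-fold, and leaving out testosterone replicate 2 as well gave 2 higher and 18 lower.

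The 5 higher genes over 2-fold with an unadjusted p under 0.05 were chosen on these values. In 4 of the 5 the highest pool was corticosterone replicate 1 or 2, and in the other it was testosterone replicate 5. The sum below is weighted to the more abundant of them. Their summed level was 17.6, 14.5, 3.71, 3.36 and 2.94 CPM in corticosterone replicates 1 to 5 and 3.83, 10.9, 4.12, 3.19 and 3.79 CPM in testosterone replicates 1 to 5. In controls it was 2.11, 2.29, 2.83, 2.40 and 2.41 CPM. In this sum every hormone pool lay above the highest control, at the nearest by 2.94 against 2.83 CPM, which the choice of genes favours. No single gene did so: 4 to 9 of the 10 hormone pools lay above the highest control. The 3 pools that stood apart were at 10.9 CPM or more, against at most 4.12 CPM in the other hormone pools. Without corticosterone replicates 1 and 2, 3 of the 5 genes had an unadjusted p under 0.05, and the 5 log2 fold changes ran from 0.64 to 1.24. Without testosterone replicate 2 as well, 4 could be tested and 2 had such a p, with log2 fold changes of 0.40 to 1.28.

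In the opposite direction, the 8 lower genes over 2-fold with such a p were high in particular controls. Their summed level was 10.1, 10.8, 13.7, 22.3 and 5.39 CPM in corticosterone replicates 1 to 5 and 3.97, 13.0, 23.1, 27.1 and 14.2 CPM in testosterone replicates 1 to 5. In controls it was 64.9, 18.0, 18.8, 28.1 and 42.2 CPM. Control replicate 1 held the highest value of 7 of the 8 genes and control replicate 5 that of the other. Control replicates 2 and 3 lay within the range of the hormone pools. Without control replicate 1, 1 of the 8 had an unadjusted p under 0.05, and their log2 fold changes ran from -1.52 to -0.65. Without control replicate 5, 5 of the 8 did, and the log2 fold changes of the 8 stayed at -1.42 to -1.06.

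For 11 of the 14260 genes, 4 higher and 7 lower, the 95% interval excluded any difference smaller than 1.2-fold. For 0 genes it excluded any smaller than 1.5-fold. The intervals were not adjusted for the number of genes, and all 11 had an edgeR adjusted p of 0.781. Most of the 11 were scarce, where such intervals can be too narrow. The higher gene of smallest p among the 4 was scarce, at 0.359 CPM after corticosterone, 0.379 CPM after testosterone and 0.159 CPM in controls, and 9 of 10 hormone pools exceeded the highest control of 0.207 CPM. On the log2 scale it was 1.13 ± 0.304 (SE) above controls, with an adjusted p of 0.781 by edgeR. No gene was read in all 10 hormone pools and in 0 controls, or the reverse.

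No summary measure of the libraries differed between hormone and control pools beyond the spread among pools. An exact permutation test, two-sided, enumerated all 3003 ways to divide 15 libraries into 10 and 5 and can give no p below 0.000666. The 5 measures were adjusted together. At the depth of the smallest library, 17069 ± 127 genes were detected after corticosterone, 16993 ± 59.8 after testosterone and 17015 ± 42.7 in controls (SD, n = 5 each, exact permutation p = 0.789, adjusted p = 0.789). Corticosterone replicates 1 and 2 had the highest numbers, 17208 and 17204, and the controls spanned 16948 to 17064. The most abundant gene of a library took 2.14 ± 0.122% of its counts after corticosterone, 2.19 ± 0.182% after testosterone and 2.28 ± 0.131% in controls (exact permutation p = 0.172, adjusted p = 0.478). It was the same gene in 12 libraries, but another in control replicate 1, corticosterone replicate 5 and testosterone replicate 5. The mean log2 CPM of genes over 100 CPM exceeded that of genes at 1 to 10 CPM by 5.90 ± 0.062 in hormone pools (n = 10) and 5.92 ± 0.039 in controls (n = 5, exact permutation p = 0.745, adjusted p = 0.789).

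Scores on the principal components overlapped as well. The first component held 21.3% of the variance, with a mean score of 1.83 ± 16.5 in hormone pools and -3.66 ± 4.46 in controls (exact permutation p = 0.585, adjusted p = 0.789). The highest 3 scores were those of corticosterone replicates 1 and 2 and testosterone replicate 2. The second component held 15.7%, with -2.86 ± 11.1 in hormone pools and 5.72 ± 12.0 in controls (exact permutation p = 0.191, adjusted p = 0.478). The difference in this score, hormone minus control, was -8.58 with all pools and -13.0 without control replicate 3 (exact permutation p = 0.042, adjusted p = 0.210). Testosterone replicate 5 scored lowest, at -23.7, and control replicate 1 highest, at 20.1.

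The number of genes at a small p depended on single pools. The 877 genes became 436 without control replicate 1, 550 without control replicate 5 and 577 without control replicate 2. Leaving out control replicate 4 gave 1296 and leaving out corticosterone replicate 5 gave 1262. In the fits with 1 pool left out, 341 to 774 of the 877 genes were found again in the same direction. The 436 genes without control replicate 1 included 341 of them. In each of these fits 0 genes passed the adjusted threshold, and the smallest adjusted p was 0.143, for ENSGALG00000046395 without corticosterone replicate 5.

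**Figure D5:**
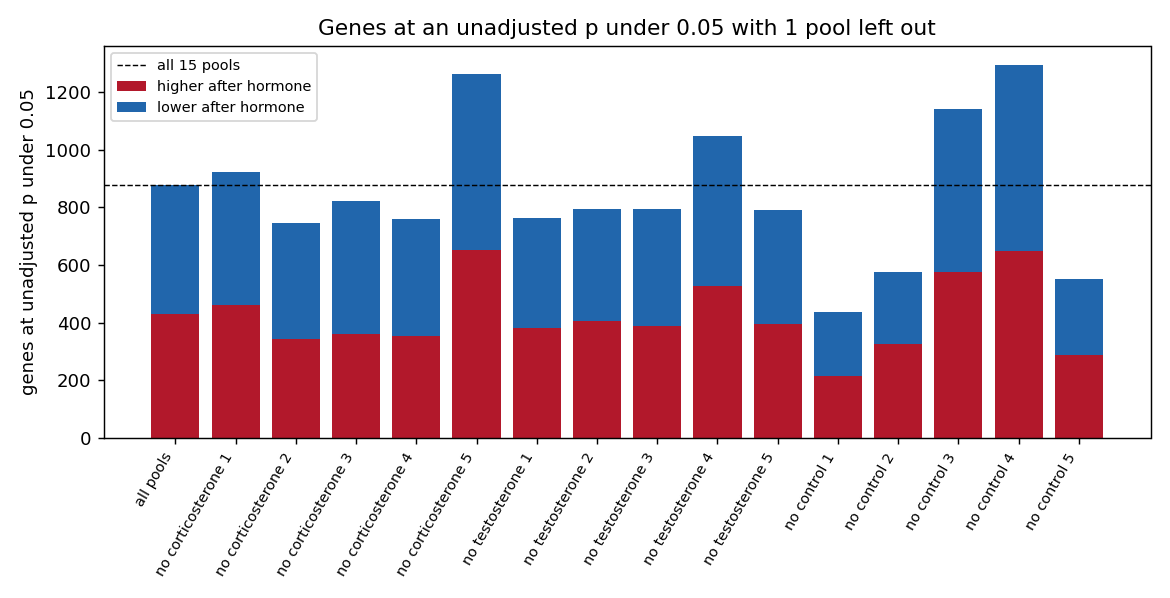
Number of genes at an unadjusted edgeR p under 0.05, higher (red) and lower (blue) in hormone pools, with all 15 pools and with each pool left out in turn. The dashed line marks the 877 genes of all pools. Leaving out a control moved the count between 436 and 1296, and leaving out a hormone pool moved it between 745 and 1262.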

How the data were processed

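Raw counts of reads per gene were deposited as 1 table with 15 libraries, and 0 columns lacked a sample. Per the submitters' processing notes, the tools were TopHat2 2.0.14 and HTSeq 0.6.1p1. No build, annotation or strand setting is given in the sources used here. The kit marks strand, per the labels' protocols, but reads of overlapping genes or close paralogs may be misassigned.

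Counts were fitted with edgeR 4.0.16 in R 4.3.3 (filterByExpr by group, TMM, robust quasi-likelihood fit, 1 mean per group). The contrast was the mean of corticosterone and testosterone minus control, with Benjamini-Hochberg adjustment over 14260 genes. Standard errors were derived from the F statistic and can be too narrow for scarce genes. Principal components used log2 CPM with a prior count of 2. Depth was equalised for detected genes by the expected number at the smallest total. Exact permutation tests were two-sided. The fit was tested on simulated data with changes of 1.5-fold and 2-fold and no pools that stood apart. That test does not bear on smaller differences. All 105 pairs of libraries differed beyond sampling noise (chi-square per degree of freedom of at least 5.54).

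Alternatives used limma 3.58.1, DESeq2 1.42.0 and sva 3.50.0. Transcripts named are, in each direction, the smallest p overall and the smallest p at 100 CPM or more. Lists by symbol could not be applied. Comparisons and lists were chosen with earlier results of these data known.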

Additional observations from a re-analysis of the deposited data

Results flagged for a closer look

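Values far from the rest of their group were looked for in 40 sets of 5 or 10 libraries, and 5 were found, where chance gives about 2. Testosterone replicate 5 accounts for 4 of them. Its total of 12913729 counts lay below the 25979882 of the next testosterone library and the 24550108 of the next hormone library, which makes up 2 of the 4. In it the most abundant gene took 2.51% of counts, and in the testosterone library nearest to it 2.16%. These were different genes. The gene most abundant over all pools was not the leading one in testosterone replicate 5, where it was at 19751 CPM. ENSGALG00000044985 was at 32.7 CPM in testosterone replicate 5, above the 29.9 CPM of the next hormone pool. Without this library the log2 fold change of that gene was 0.21, against 0.23 with it. ENSGALG00000002141 was at 165.8 CPM in corticosterone replicate 2, below the 187.1 CPM of the next corticosterone pool, and its pooled log2 fold change without that library was -0.15, against -0.16 with it.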

How the results depend on the processing

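The count of 0 adjusted calls held in 28 of 29 alternatives, and DESeq2 gave 2. The 877 genes at an unadjusted p under 0.05 became 1462 with limma voom and 436 to 1296 with 1 pool left out, and stayed within 1.5-fold in 24 of 28 alternatives. The 9 genes whose groups did not overlap became 4 with upper-quartile scaling, 5 with total counts and 11 to 68 with 1 pool left out. The difference in detected genes, hormone minus control, was 15.7 at equal depth, -59.0 without thinning and -1.66 to 30.2 with 1 pool left out, all with an adjusted permutation p of 0.586 or more. The share of each library's most abundant gene differed by -0.116 percentage points, and by -0.158 to -0.076 with 1 pool left out. Its smallest p came without testosterone replicate 5, at a difference of -0.156 (exact permutation p = 0.030, adjusted p = 0.150). With 1 pool left out, the difference on the first component ran from 2.19 to 7.47, that on the second from -13.0 to -4.99 and that between abundant and scarce genes from -0.026 to -4.33e-05 log2 units, with adjusted permutation p of 0.210 or more. The cause of these shifts was not tested. Non-overlap is easier to reach with fewer pools, but whether this accounts for the counts was not tested either. A fit with a replicate block gave 826 genes that had an unadjusted p under 0.05 and 0 passed adjustment. The labels do not say that equal numbers pair pools. Over the 15 pairs of pools that share a number, correlations of their deviations from the group means ran from -0.183 to 0.226, with 4 above 0.1. Among libraries of the other groups, 3 of 15 libraries correlated best with their own number. That number recurs in each group, so some such matches arise by chance. The named transcripts kept their direction in all 29 alternatives, of which 1 was the main fit read at an adjusted threshold of 0.1. They were chosen for a small p in these libraries, most of which each alternative reuses, so a kept direction is no independent support. Genes under 1 CPM were least precise.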
